A study of Mus musculus with 24 samples.

Results

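Fibroblast and extracellular matrix genes were examined in RNA from whole mouse hearts as a set of 45 genes chosen by symbol: collagens, matrix glycoproteins and proteoglycans, the enzymes that process them, and markers of fibroblasts. All 45 were found among the 52724 gene rows of the count table, and all 45 passed the filter on low counts that left 16018 genes for testing. The deleted gene, Fkbp1a, encodes FKBP12, an immunophilin that binds ryanodine receptors and the type I receptors of TGF-β. Compared here were hearts with floxed Fkbp1a and no Cre named (FKl/l), with Cre under the α-myosin heavy chain promoter only (MHC CRE Only), floxed with Cre from the muscle creatine kinase promoter (FKl/l MCK+), and floxed with Cre from the α-myosin heavy chain promoter (FKl/l MHC+). By the series' design the MHC promoter acts earlier in development than the MCK promoter, and the Cre levels also differ. There were 6 libraries of each genotype, 3 per labelled batch, and the name FKl/l 1-3 stands for the library of FKl/l with batch 1 and number 3. The labels give no age, sex or strain, and they do not say that libraries are from different animals. The tests therefore compare genotypes with the spread among libraries, which may be partly technical. Both promoters belong to muscle cells, while most genes of the set are made mainly by fibroblasts and vessel cells, and a whole heart gives the level of the mixture. In such samples fewer cells of a type and less RNA per cell cannot be told apart.

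The extracellular matrix of the heart holds muscle cells, vessels and nerves in place and carries force between them. Fibrillar collagens give it tensile strength, elastin and the microfibrils that carry it give recoil, and laminins, collagen IV, nidogens and perlecan form the basement membrane around each muscle cell and vessel. Resident fibroblasts, marked by Pdgfra and Tcf21, make most of the fibrillar matrix, and in fibrosis they become myofibroblasts that add collagen, periostin and cross-linking enzymes.

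Fkbp1a, the deleted gene, had a mean of 130 ± 10.1 (SD, n = 6) CPM, counts scaled to a common library size, in FKl/l, 65.1 ± 10.7 in FKl/l MCK+ and 59.1 ± 12.6 in FKl/l MHC+. It was at 122 to 138 CPM in the other MHC CRE Only libraries and at 81.8 in the library labelled MHC CRE Only 1-3, next to the highest deletion library (81.1 CPM). That library goes against its label in this respect, and counts of called genes against MHC CRE Only are given with and without it. Libraries held 27799403 to 40412640 counts in gene rows. All 8 fibroblast markers were present in every library, the lowest being Tcf21 at 6.17 CPM. Lung and airway transcripts summed to 796 CPM in MHC CRE Only 2-3 and 310 in FKl/l 1-1, and to 61.4 CPM or less in the other libraries.

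One library stood apart for these genes. FKl/l MCK+ 1-2 was the highest of the 24 libraries for 23 of the 45 genes (51.1%), against 8.14% of all genes tested. The genes lay at a median of 0.41 above the other 5 FKl/l MCK+ libraries on the log2 scale, and 12 exceeded the median of those libraries by over 1.5-fold. Mfap4, a microfibril-associated glycoprotein, was at 49.4 CPM there, 3.06 times that median. Eln, the elastin gene, was at 308 CPM, a ratio of 2.85. Col3a1 was at 317 CPM (2.32 times) and Col1a1 at 182 CPM (2.08 times), the chains of the 2 main fibrillar collagens. Fbln1, in contrast, was at its lowest FKl/l MCK+ value in that library (168 CPM). The same library had 29.1% of its counts in mitochondrial genes, where the other FKl/l MCK+ libraries of batch 1 had 36.4% and 36.5%. FKl/l 1-3, also of batch 1, was lower still at 27.6%. FKl/l MCK+ 1-2 also had the highest sums of endothelial (1479 CPM), macrophage (247 CPM), erythroid (14173 CPM) and fibroblast (1777 CPM) markers of the 24 libraries. All 8 genes of the fibroblast sum belong to the set, so that sum is no separate observation. Of these, Col1a2, Dpt and Lum were at 1.66, 1.61 and 1.31 times the median of the other 5 FKl/l MCK+ libraries. Gsn, Dcn, Tcf21 and Pdgfra were at 1.07, 1.07, 1.01 and 0.922 times it. The part of these cell types in the matrix values was not tested. FKl/l MCK+ 2-3 was next, with a median of 0.25 above its genotype and the highest value for 5 genes.

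**Figure D1:**
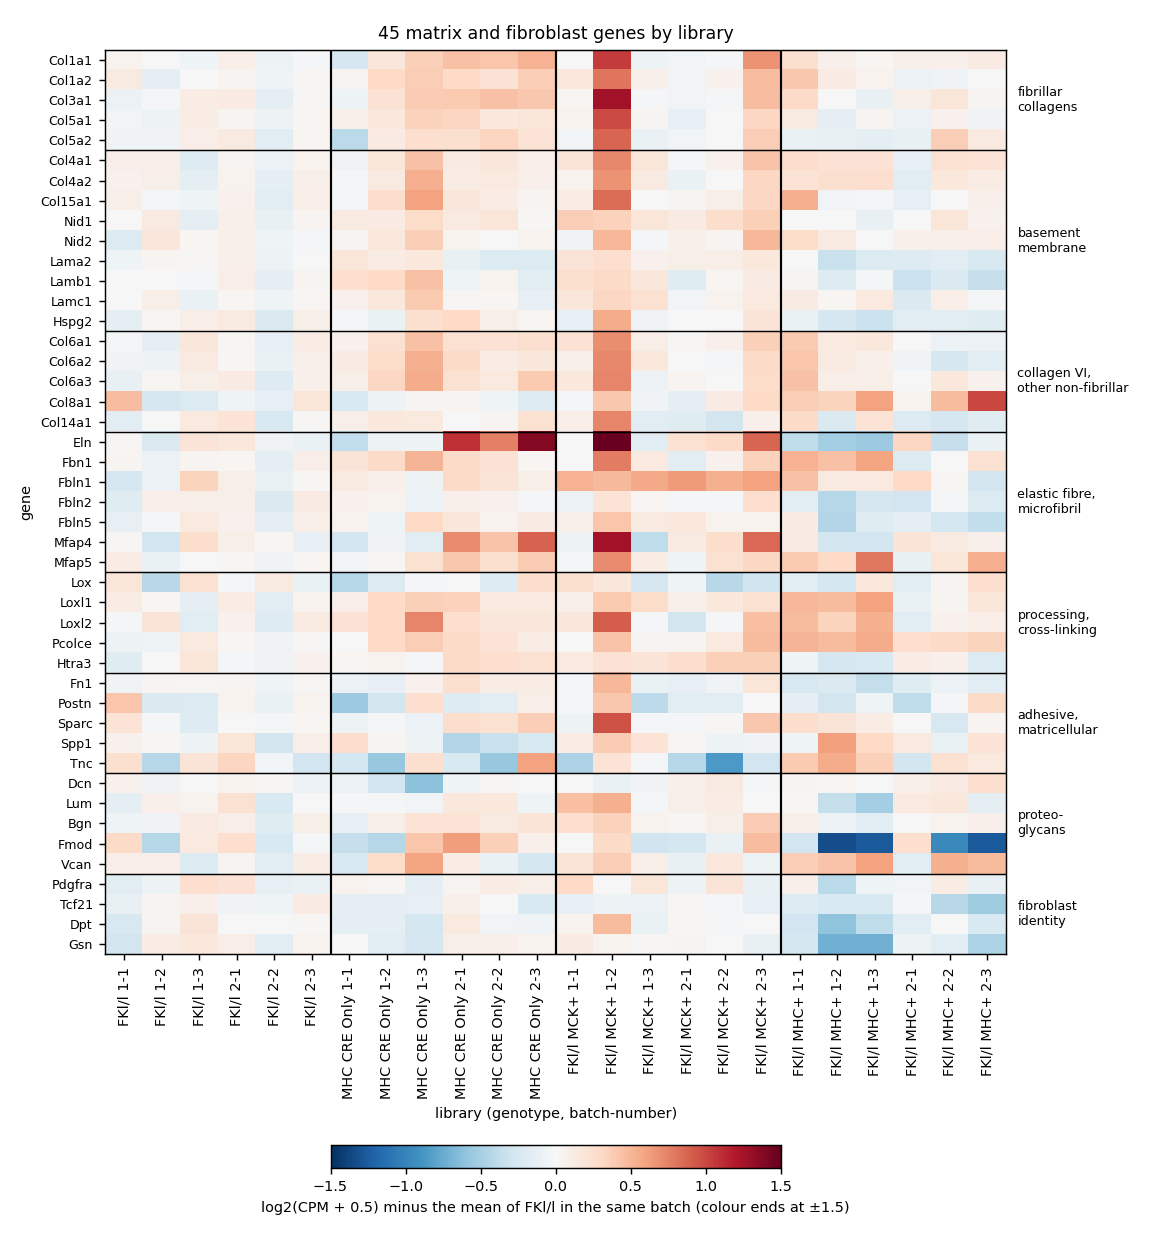
Each row is 1 of the 45 genes, grouped by role, and each column is a library. Colour is log2(CPM + 0.5) minus the mean of the FKl/l libraries of the same batch; the column of FKl/l MCK+ 1-2 is red across most rows, Fbln1 is raised in all 6 FKl/l MCK+ libraries, and Fmod and Gsn are blue in most FKl/l MHC+ libraries.

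Levels among the genes spanned a wide range. In FKl/l, per kilobase of exon, Gsn (245 CPM per kb), Sparc (106 CPM per kb) and Dcn (66.3 CPM per kb) were highest. Gsn encodes gelsolin, which cuts actin filaments and is made by muscle cells as well as fibroblasts; Sparc encodes a collagen-binding matricellular protein and Dcn the proteoglycan decorin. Col4a1 and Col4a2, which form the main collagen IV trimer, followed at 39.2 and 36.1 CPM per kb. Vcan (0.447), Tnc (0.156) and Spp1 (0.15 CPM per kb), which encode versican, tenascin C and osteopontin and are known from injured tissue, were lowest. Spp1 had only 4 to 18 counts per library, so its fold changes carry wide errors.

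Of the 11 genes called in any comparison of genotypes, GENCODE M21 places Fbln1 (ENSMUSG00000006369) at chr15:85205949-85286535 on the plus strand, Pcolce (ENSMUSG00000029718) at chr5:137605103-137613784 on the minus strand, Gsn (ENSMUSG00000026879) at chr2:35256380-35307892 on the plus strand and Lamb1 (ENSMUSG00000002900) at chr12:31265234-31329644 on the plus strand. It places Col8a1 (ENSMUSG00000068196) at chr16:57624258-57754737 on the minus strand, Htra3 (ENSMUSG00000029096) at chr5:35652023-35679782 on the minus strand, Lama2 (ENSMUSG00000019899) at chr10:26980036-27619758 on the minus strand and Fbln5 (ENSMUSG00000021186) at chr12:101746565-101819055 on the minus strand. It places Nid1 (ENSMUSG00000005397) at chr13:13437551-13512269 on the plus strand, Fbln2 (ENSMUSG00000064080) at chr6:91212455-91272540 on the plus strand and Dpt (ENSMUSG00000026574) at chr1:164796644-164824266 on the plus strand. Some of the genes are neighbours. In GENCODE M21 on GRCm38, Col4a1 and Col4a2 lie head to head on chromosome 8 and their annotated ends overlap by 22 bases. Col3a1 and Col5a2 lie tail to tail on chromosome 1, 24614 bases apart, and Dcn and Lum on the same strand of chromosome 10, 46984 bases apart. Col6a2 and Col6a1 are 85161 bases apart on chromosome 10.

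RefSeq promoter windows (GRCm38.p6) were found for 31 of the 45 genes. The 250 bases before a start site are shown for 4 genes whose levels differed between genotypes. They show the regions of Fbln1, raised in FKl/l MCK+, of Lama2, lower in FKl/l MHC+ than in FKl/l MCK+, of Gsn, lower in FKl/l MHC+, and of Col8a1, higher in FKl/l MHC+ than in MHC CRE Only. The windows are chr15:85205699-85205948 on the plus strand (Fbln1), chr10:27616943-27617192 on the minus strand (Lama2), chr2:35256109-35256358 on the plus strand (Gsn) and chr16:57754738-57754987 on the minus strand (Col8a1), each read 5′ to 3′ and overlapping no GENCODE exon. The Lama2 window precedes a start inside the annotated gene, whose outermost start lies further upstream. Capitals mark matches, on either strand, to TGANTCA (the site of AP-1), CAGCTG (an E-box of the kind TCF21 binds, the same on both strands), GGGCGG (the GC box), TATAAA (the TATA box) and CAGACA (an element bound by SMAD proteins); touching matches run together.
Fbln1: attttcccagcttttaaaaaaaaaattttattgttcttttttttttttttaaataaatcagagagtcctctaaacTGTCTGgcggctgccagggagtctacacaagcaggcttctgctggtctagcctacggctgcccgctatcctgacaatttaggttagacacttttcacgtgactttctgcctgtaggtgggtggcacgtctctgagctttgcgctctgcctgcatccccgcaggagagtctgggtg
Lama2: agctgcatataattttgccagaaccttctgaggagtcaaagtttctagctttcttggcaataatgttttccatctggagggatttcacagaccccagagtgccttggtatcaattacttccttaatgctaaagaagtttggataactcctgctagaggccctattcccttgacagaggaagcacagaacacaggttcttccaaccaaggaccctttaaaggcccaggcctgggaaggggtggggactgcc
Gsn: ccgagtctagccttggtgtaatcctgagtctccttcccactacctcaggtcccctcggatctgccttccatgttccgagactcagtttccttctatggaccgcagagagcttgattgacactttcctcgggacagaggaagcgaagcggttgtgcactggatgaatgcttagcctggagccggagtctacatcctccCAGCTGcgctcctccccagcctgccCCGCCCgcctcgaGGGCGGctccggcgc
Col8a1: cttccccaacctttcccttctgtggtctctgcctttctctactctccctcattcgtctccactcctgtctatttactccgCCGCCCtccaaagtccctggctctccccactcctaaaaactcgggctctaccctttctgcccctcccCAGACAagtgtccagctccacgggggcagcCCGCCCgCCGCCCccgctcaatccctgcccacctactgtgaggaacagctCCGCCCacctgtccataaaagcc
In the windows shown, Fbln1 held 1 CAGACA match, Lama2 none of the 5 motifs, Gsn 1 CAGCTG and 2 GC boxes, and Col8a1 4 GC boxes and 1 CAGACA. Windows of other starts differed. For Fbln1, chr15:85205758-85206007 held 1 CAGCTG, 1 GC box and 1 CAGACA. That window overlaps the one shown, and its CAGACA match is the same one. For Gsn, chr2:35266494-35266743 held 1 CAGCTG and 1 GC box, and chr2:35282130-35282379 held 1 GC box. Over the 39 promoter windows of the genes, GGGCGG was found in 21, CAGACA in 10, CAGCTG in 8, TATAAA in 5 and TGANTCA in 1. Among all 32851 windows of the same length the shares were 32.7%, 17.1%, 13%, 12.4% and 6.75%. Windows of the same gene can overlap, as for Fbln1 and Tnc, so a match can count in more than 1 window. A match is a run of letters and not a measured site.

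The first comparison set the later deletion, FKl/l MCK+, against FKl/l. Fbln1, a calcium-binding glycoprotein of microfibrils and basement membranes (fibulin 1), was the only one of the 45 called, at adjusted p under 0.05 in edgeR's quasi-likelihood F-test. It lay at 168 to 188 CPM in FKl/l MCK+ (median 177) and at 101 to 151 CPM in FKl/l (median 117). The groups did not overlap, and the highest FKl/l library was 1-3. The log2 fold change was 0.55 (SE 0.0939, adjusted p = 0.00859), with 0.50 in batch 1 and 0.59 in batch 2. Among all genes tested 0.0499% were called, 8 genes. Without FKl/l MCK+ 1-2 the log2 fold change of Fbln1 was 0.56 (adjusted p = 0.0161). In the authors' deposited table, which tests against a fold of 1.2, its log2 fold change was 0.55 with p = 0.00319 and an adjusted p of 1.

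The other fibulins of the set, Fbln2 and Fbln5, take part in elastic fibres. They had log2 fold changes of 0.06 and 0.16 in this comparison and were not called.

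No other gene of the set was called in this comparison. Of the 45 genes 41 had a positive log2 fold change, with a median of 0.20, where the median of all genes was 0.00434. At an unadjusted p under 0.05 there were 13, all higher, against 5.24% of all genes. They included Col1a2 (0.28), Col4a1 (0.28), Nid1 (0.28), Col6a1 (0.26), Htra3 (0.25) and Bgn (0.19). Without FKl/l MCK+ 1-2 the median fell to 0.10, 35 of 45 were positive and 6 passed an unadjusted p under 0.05, of which 1, Tnc, was lower. Among the fibrillar collagens Col3a1 went from 0.36 (SE 0.177) to 0.08 (SE 0.0902) and Col1a1 from 0.34 (SE 0.164) to 0.11 (SE 0.115). Eln went from 0.57 (SE 0.279) to 0.17 (SE 0.21).

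By role, no fibrillar collagen was called (Col1a2, smallest p, adjusted p = 0.825). Among basement membrane genes Nid1, the linker nidogen 1, came closest (adjusted p = 0.176, or 0.258 without FKl/l MCK+ 1-2). The smallest p among the other collagens was that of Col6a1 (adjusted p = 0.809) and among the processing genes that of Htra3, a secreted serine protease (adjusted p = 0.413, called only without FKl/l 1-3, a count of 2). For adhesive proteins it was that of Sparc (0.971), for proteoglycans that of Bgn, biglycan (0.825), and for fibroblast identity that of Tcf21 (0.999).

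**Figure D2:**
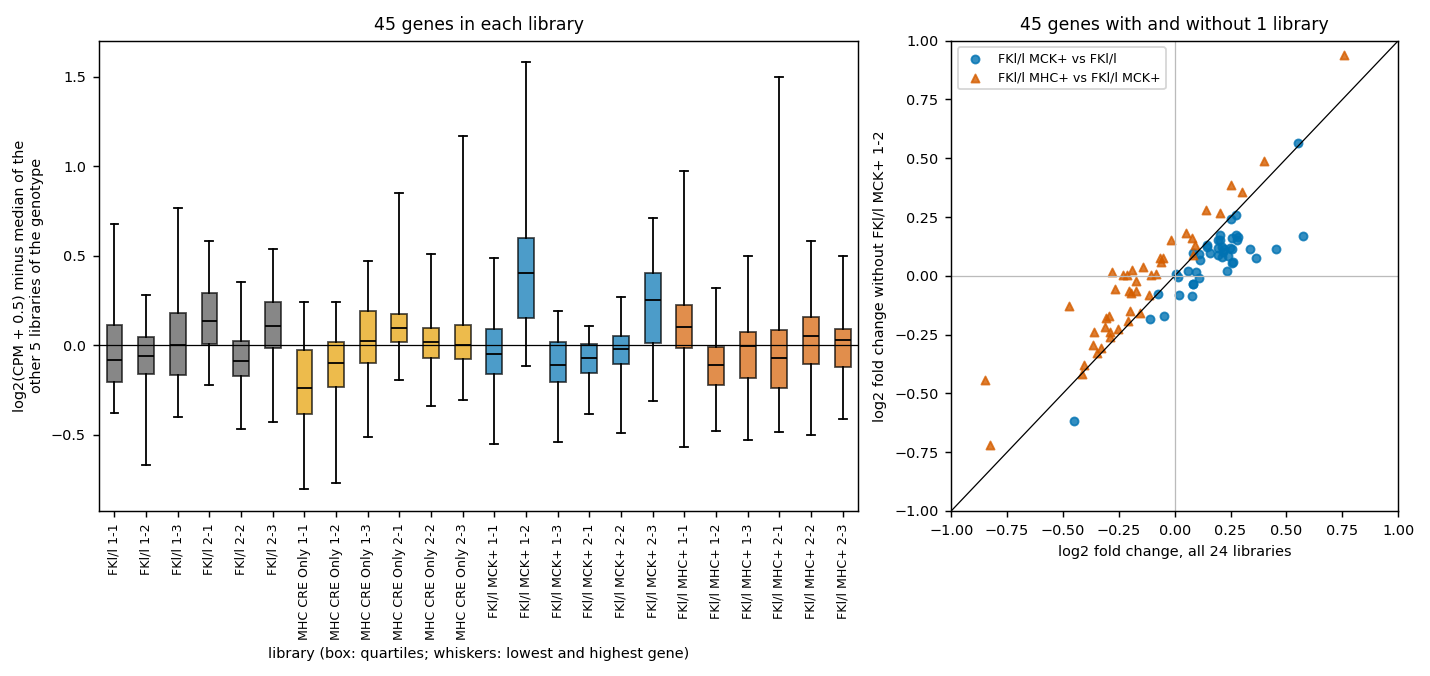
Left, for each library, the spread over the 45 genes of log2(CPM + 0.5) minus the median of the other 5 libraries of its genotype; the box of FKl/l MCK+ 1-2 is centred at 0.41. Right, log2 fold changes of the 45 genes with all libraries (x) and without that library (y) in 2 comparisons; the medians move from 0.20 to 0.10 and from -0.19 to -0.05.

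The earlier deletion, FKl/l MHC+, against the same FKl/l libraries gave 2 called genes, 1 in each direction. Among all genes 1.71% were called. Pcolce encodes the enhancer of procollagen C-proteinase, which helps to cut the end of fibrillar procollagens. It was at 60.7 to 76.2 CPM in FKl/l MHC+ (median 68.3) and at 48.8 to 57.1 CPM in FKl/l (median 50.4), with no overlap. Its log2 fold change was 0.41 (SE 0.0822, adjusted p = 0.00638), and it was called in each of the 24 fits that left out 1 library. The batches gave 0.51 and 0.29, and with batch 2 alone it was not called (adjusted p = 0.138).

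Gsn was lower, at 480 to 705 CPM in FKl/l MHC+ (median 598) against 657 to 886 CPM in FKl/l (median 784). The ranges overlapped: FKl/l MHC+ 1-1, 2-1 and 2-2 were at or above the lowest FKl/l library, and FKl/l MHC+ 1-2 and 1-3 were lowest. The log2 fold change was -0.39 (SE 0.0961, adjusted p = 0.0274), with -0.56 in batch 1 and -0.23 in batch 2. The call was lost without FKl/l 1-2, 1-3 or 2-1 or without FKl/l MHC+ 1-2, 1-3 or 2-3, with an adjusted p of at most 0.101.

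The set as a whole had a median log2 fold change of 0.02 in this comparison (-0.00346 over all genes), and 16 genes had an unadjusted p under 0.05, 6 higher and 10 lower, against 14.7% of all genes. None of the 5 fibrillar collagens was among them, with log2 fold changes from -0.01 to 0.11. Col8a1, a short-chain collagen of vessel walls, came close at 0.50 (adjusted p = 0.0613), and Vcan was at 0.41 (adjusted p = 0.103). Fmod, fibromodulin, a small proteoglycan that binds fibrillar collagen, had the largest difference at -0.81 but was not called. It lay at 1.74 to 2.36 CPM in FKl/l MHC+ 1-2, 1-3, 2-2 and 2-3 and at 4.12 and 6.14 in 1-1 and 2-1, against 3.68 to 6.4 in FKl/l. All 4 fibroblast identity genes had negative log2 fold changes, from -0.39 to -0.07, and only Gsn was called. In the same comparison 9 of 12 endothelial markers were lower at an unadjusted p under 0.05 and 1, Robo4, was called lower, and their part in this was not tested. Lama2 (adjusted p = 0.149), Fbln2 (0.107) and Fn1, fibronectin (0.219), had the smallest p of their role groups with negative log2 fold changes, and the fibrillar collagen with the smallest p was Col1a2 (0.08, adjusted p = 0.779). Fn1 did not overlap between the groups, at 28.1 to 33.4 CPM against 34.1 to 37.3.

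The number called rose to 8 without FKl/l MHC+ 2-1 (adding Vcan, Mfap5, Loxl1, Fmod, Tcf21 and Col8a1) and to 4 without FKl/l MCK+ 1-2 (adding Dpt and Col8a1). It was 1, Pcolce, without each library whose omission lost Gsn. Leaving out 3 libraries together, the library labelled MHC CRE Only 1-3 for its Fkbp1a and FKl/l 1-1 with MHC CRE Only 2-3 for their lung transcripts, gave 4 (adding Fbln2 and Col8a1). The numbers called among all genes in these fits are not given here.

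**Figure D3:**
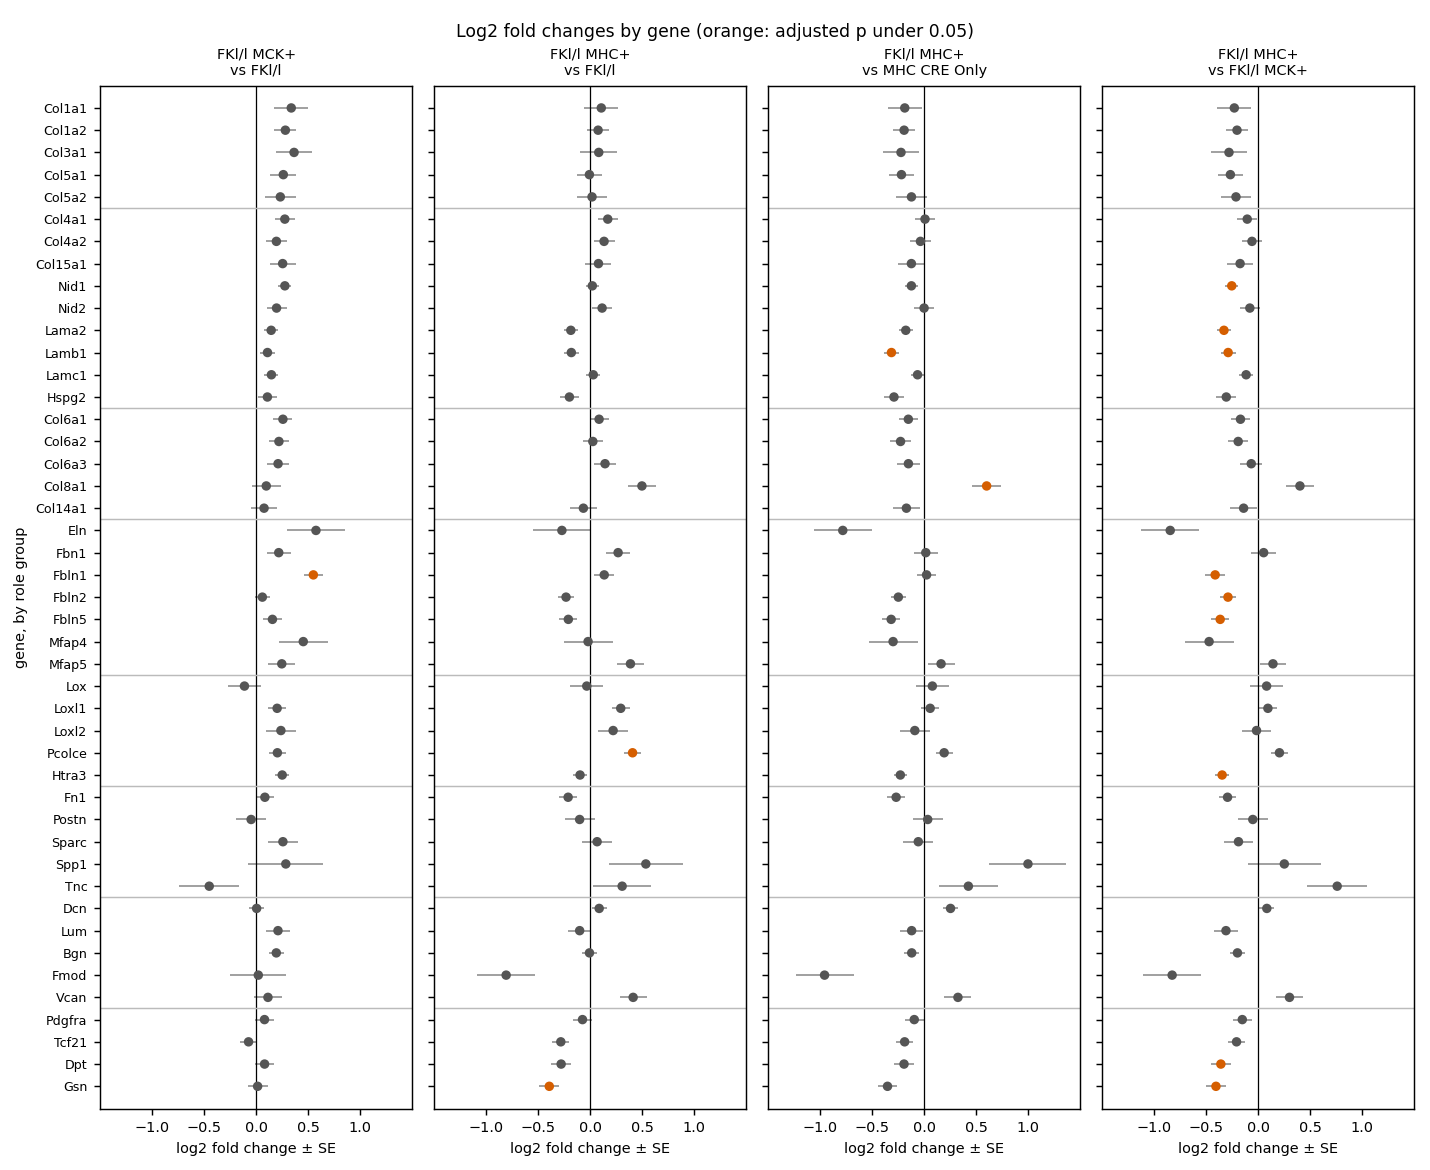
Log2 fold changes with standard errors (SE) for the 45 genes, grouped by role, in 4 comparisons from 1 fit of 24 libraries. Orange points are those with adjusted p under 0.05: 1, 2, 2 and 9 genes from left to right; most points of FKl/l MCK+ against FKl/l lie above 0 and most of FKl/l MHC+ against FKl/l MCK+ at negative values.

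Against the other control of this deletion, MHC CRE Only, 2 genes were called, where 1.87% of all genes were. Lamb1, the β1 chain of laminin, was at 50.2 to 69.9 CPM in FKl/l MHC+ (median 61.6) and at 68.2 to 84.3 CPM in MHC CRE Only (median 75). The groups overlapped only at FKl/l MHC+ 2-2 and MHC CRE Only 1-1. The log2 fold change was -0.32 (SE 0.0716, adjusted p = 0.0199), and the call was lost without FKl/l MHC+ 1-2 or 2-3, where adjusted p reached 0.0651. Col8a1 was at 11.7 to 23 CPM in FKl/l MHC+ (median 16.3) and at 9.79 to 13 in MHC CRE Only (median 11.2). Only FKl/l MHC+ 2-1 fell within the range of the controls. Its log2 fold change was 0.60 (SE 0.138, adjusted p = 0.0236), 0.55 in batch 1 and 0.65 in batch 2, and the call was lost without FKl/l MHC+ 1-3 or 2-3, where adjusted p reached 0.0674.

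Of the 45 genes 18 had an unadjusted p under 0.05, 5 higher and 13 lower, against 15.8% of all genes, and the median log2 fold change was -0.12 (-0.0161 over all genes). Just past the threshold were Gsn (-0.35, adjusted p = 0.0501), Fbln5 (-0.32, 0.0526), Dcn (0.25, 0.0611) and Htra3 (-0.23, 0.0632). Fn1 (adjusted p = 0.0921) and Col1a2 (0.389) had the smallest p of their groups. Leaving out 1 library moved the count from 2 to between 0 (without FKl/l MHC+ 2-3) and 6 (without FKl/l MCK+ 1-2 or FKl/l MHC+ 2-1), to 1 without FKl/l MHC+ 1-2 or 1-3, to 5 without FKl/l 1-3 and to 4 without FKl/l MHC+ 1-1. A count of 4 came from leaving out the library labelled MHC CRE Only 1-3: Lamb1 (-0.27, adjusted p = 0.0373), Col8a1 (0.63, adjusted p = 0.0297), Gsn and Htra3, with 17 genes at an unadjusted p under 0.05 and a median of -0.10. In edgeR's test batch 1 alone gave 0 (11 at an unadjusted p under 0.05), and batch 2 alone gave 8, all lower: Col6a1, Col6a2, Fbln5, Fn1, Gsn, Hspg2, Htra3 and Eln. Fits of 1 batch had 3 libraries per genotype. The batch 2 controls included MHC CRE Only 2-3, with 796 CPM of lung and airway transcripts and their highest Eln value (229 CPM). The numbers called among all genes are not given here for fits of 1 batch or with libraries left out.

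The controls were also compared with each other. In MHC CRE Only against FKl/l edgeR called 0 of the 45 genes, DESeq2 0 (10 at an unadjusted p under 0.05) and limma voom 0 (11). Among all genes 0.0437% were called. Leaving out any 1 library, the library labelled MHC CRE Only 1-3 included, gave 0 as well. At an unadjusted p under 0.05 edgeR had 10, 9 of them higher in MHC CRE Only, against 12.9% of all genes. The median log2 fold change was 0.12. The 3 collagen VI genes had log2 fold changes of 0.24, 0.25 and 0.29 (Col6a3, smallest p, adjusted p = 0.238). Loxl1, a lysyl oxidase that cross-links elastin, had the smallest p of all 45 (0.24, SE 0.0853, adjusted p = 0.231). Other groups were led by Col1a2 (adjusted p = 0.268), Nid1 (0.324), Fbn1 (0.357), Spp1 (0.658), Dcn (0.314) and Tcf21 (0.677).

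With all libraries the direct comparison of the deletions gave the most calls; without FKl/l MCK+ 1-2 it gave 3, against 4 for FKl/l MHC+ against FKl/l and 6 against MHC CRE Only, and with batch 2 alone 3 against 0 and 8. In FKl/l MHC+ against FKl/l MCK+ 9 of the 45 genes were called and all 9 were lower in FKl/l MHC+. That is 20% of the set, where 2.15% of all genes were called and 1.17% called lower. They were the basement membrane genes Lama2, Lamb1 and Nid1, the fibulins Fbln1, Fbln2 and Fbln5, the protease Htra3 and the fibroblast identity genes Gsn and Dpt (dermatopontin, a small matrix protein that binds decorin). The comparison shares each deletion's libraries with the comparisons above.

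Htra3 was at 69.7 to 91.8 CPM in FKl/l MHC+ (median 83.3) and at 96.8 to 112 CPM in FKl/l MCK+ (median 105), with no overlap. The log2 fold change was -0.35 (SE 0.0657, adjusted p = 0.00434), -0.37 in batch 1 and -0.33 in batch 2. Lama2, the α2 chain of the laminin around muscle fibres, was at 40.4 to 52.2 CPM (median 50.3) against 53.7 to 65.3 CPM (median 61.3). Again no library overlapped, and the log2 fold change was -0.33 (SE 0.0652, adjusted p = 0.00641). Both genes were called in each of the 24 fits that left out 1 library and in batch 2 alone, and neither in batch 1 alone (adjusted p = 0.0947 and 0.0994).

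Fbln1 was at 100 to 162 CPM in FKl/l MHC+ (median 133), below every FKl/l MCK+ library. The log2 fold change was -0.41 (SE 0.0938, adjusted p = 0.0173), -0.28 in batch 1 and -0.56 in batch 2, and it was not called without FKl/l MHC+ 2-3 (adjusted p = 0.0572). Against FKl/l its log2 fold change in FKl/l MHC+ was 0.13 and was not called. Fbln5 was at 13.9 to 20.8 CPM against 20.1 to 25.5 (-0.37, SE 0.0875, adjusted p = 0.0232), and the ranges overlapped only at FKl/l MHC+ 1-1. Fbln2 was at 38.3 to 50.2 CPM against 48.7 to 61.1 (-0.29, SE 0.0745, adjusted p = 0.0338).

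Lamb1 was at 50.2 to 69.9 CPM against 64.5 to 88.4 (-0.29, SE 0.0716, adjusted p = 0.0284). Nid1 was at 59.3 to 69.1 CPM against 65.2 to 89 (-0.26, SE 0.0628, adjusted p = 0.0278). Gsn was at 480 to 705 CPM against 688 to 864 (-0.41, SE 0.0961, adjusted p = 0.0222), and the ranges met only at FKl/l MHC+ 2-1. In the fibroblast identity group Dpt was at 36 to 46.9 CPM against 45.9 to 77 (-0.36, SE 0.0948, adjusted p = 0.0398), and FKl/l MCK+ 1-2 held the value of 77. The fall of Dpt was -0.59 in batch 1 and -0.13 in batch 2, and that of Gsn -0.61 and -0.20.

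These 6 genes (Fbln2, Fbln5, Lamb1, Nid1, Gsn and Dpt) lost their calls without any 1 of FKl/l MCK+ 1-2 or FKl/l MHC+ 1-2, 1-3 or 2-3, with adjusted p up to 0.113, 0.0786, 0.0893, 0.0928, 0.0765 and 0.133 in that order. Gsn was also lost without FKl/l MCK+ 1-1, Lamb1 without FKl/l MCK+ 1-1 or 2-3, and Nid1 without either of those or FKl/l MHC+ 1-1. Fbln2 was also lost without FKl/l MCK+ 1-3 or 2-3 or FKl/l MHC+ 2-1, and Dpt without FKl/l MCK+ 1-1, FKl/l MHC+ 1-1, FKl/l 2-3 or MHC CRE Only 1-2. The count fell from 9 to 5 without FKl/l MCK+ 1-1, to 3 without FKl/l MCK+ 1-2, FKl/l MHC+ 1-2 or 1-3, and to 2 without FKl/l MHC+ 2-3. Over all genes it fell from 345 to 172, 224, 167, 163 and 143 in those 5 fits. Batch 1 alone called 0 of the 45 (15 at an unadjusted p under 0.05) and batch 2 alone 3, Fbln1, Lama2 and Htra3.

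**Figure D4:**
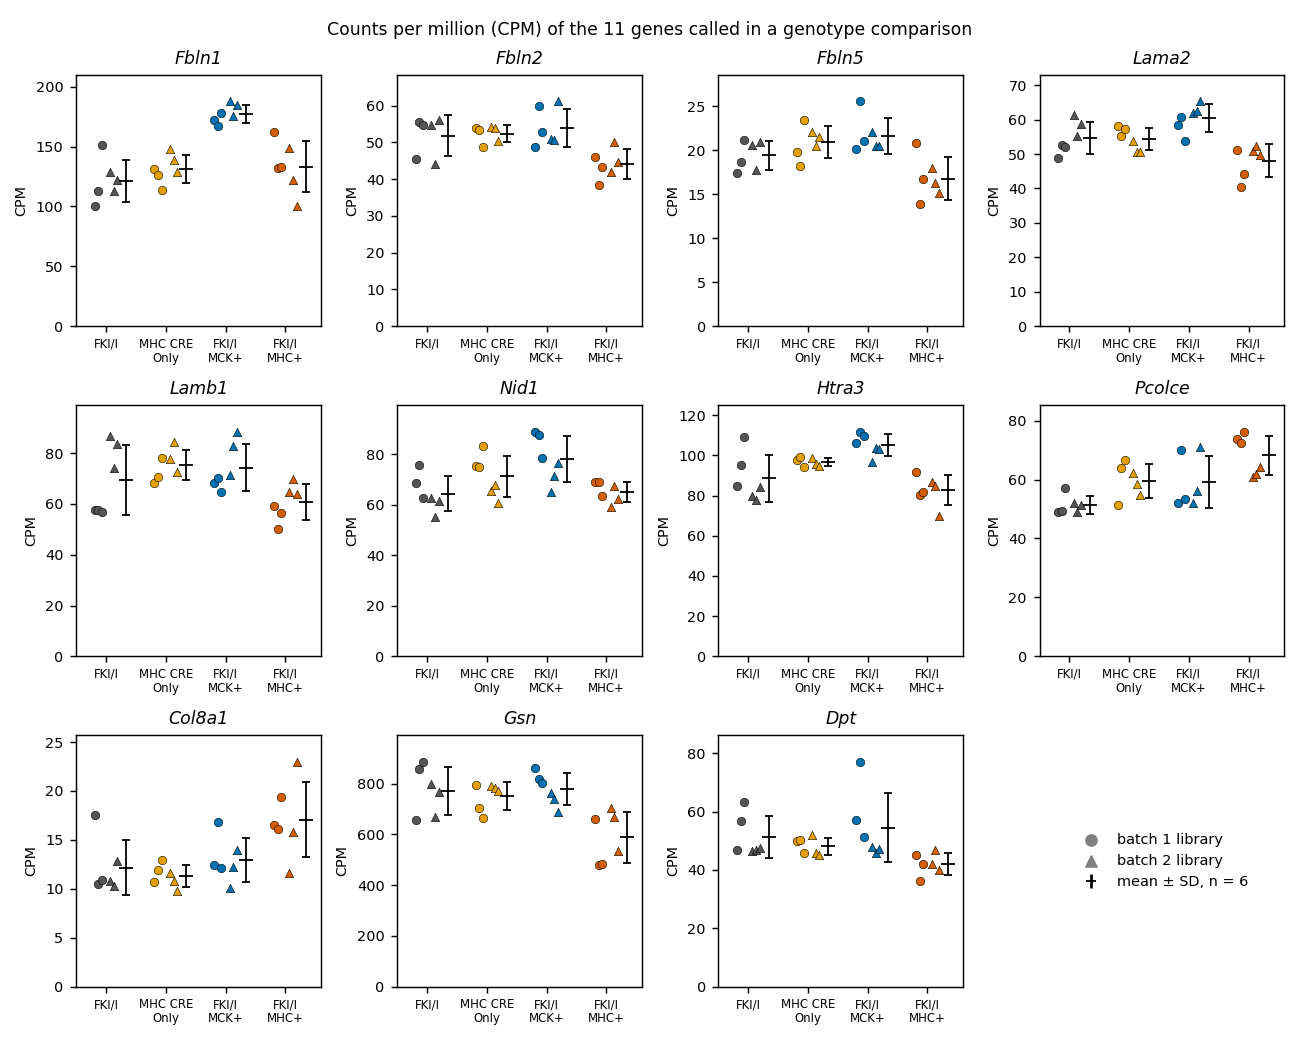
CPM of the 11 genes called in at least 1 genotype comparison, by library (circles batch 1, triangles batch 2), with the mean and SD of each genotype (n = 6). Fbln1 stands at 168 to 188 CPM in FKl/l MCK+, above the libraries of the other genotypes, and Lama2 and Htra3 do not overlap between FKl/l MCK+ and FKl/l MHC+.

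The 36 genes that were not called included 12 with an unadjusted p under 0.05, 8 lower and 4 higher. Over all 45 genes there were 21, 17 lower and 4 higher, against 15.4% of all genes, and the median log2 fold change was -0.19 (-0.00713 over all genes). Without FKl/l MCK+ 1-2 the median was -0.05 and 21 of 45 log2 fold changes were positive, where 10 were with that library. The 4 higher genes were Col8a1 (0.40, adjusted p = 0.14), Tnc (0.76), Vcan (0.30) and Pcolce (0.20). The fibrillar collagens ranged from -0.28 to -0.20 with all libraries, and Col1a1 and Col3a1 were at 0.00 and 0.02 without that library. Fn1 (-0.30, adjusted p = 0.0633), Fmod (-0.83, 0.138) and Col5a1 (-0.27, 0.292) had the smallest p of their role groups.

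Endothelial markers were lower in the same comparison. Of 12 such genes 7 were called lower in FKl/l MHC+ than in FKl/l MCK+ (Robo4, Cdh5, Tek, Tie1, Pecam1, Kdr and Esam). Only Robo4 was called lower than in MHC CRE Only. Their list summed to 916 to 1090 CPM in FKl/l MHC+, 1012 to 1145 in MHC CRE Only, 1040 to 1479 in FKl/l MCK+ and 1044 to 1341 in FKl/l. In batch 1 the sums were 1019 to 1090, 1012 to 1145, 1285 to 1479 and 1221 to 1341 in that order. In batch 2 they were 916 to 1005, 1096 to 1116, 1040 to 1092 and 1044 to 1080. Vessel cells are a known source of basement membrane genes. The 9 such genes of the set had log2 fold changes from -0.33 to -0.06, and 3 were called lower. Col4a1, Col4a2 and Nid2, not called, were at -0.11, -0.06 and -0.08. Of 11 smooth muscle and pericyte markers 2 were called lower, Pdgfrb and Mcam. The fibroblast list, 8 genes that all belong to the set, summed to 1229 to 1486 CPM in FKl/l MHC+ and 1445 to 1777 in FKl/l MCK+, and 2 of the 8 were called lower, Gsn and Dpt. Gsn, made by muscle cells as well as fibroblasts, was the largest part of that sum. It was at 480 to 705 CPM in FKl/l MHC+ and 688 to 864 in FKl/l MCK+. Of the genes not called, Dcn was at a log2 fold change of 0.08. Col1a1, Col1a2, Pdgfra, Tcf21 and Lum were at -0.23, -0.20, -0.15, -0.21 and -0.31. Of 12 cardiomyocyte markers edgeR called 0 (1 at an unadjusted p under 0.05; sums of 62374 to 69048 and 66139 to 73965 CPM). Of 6 skeletal muscle markers 2, Mylpf and Atp2a1, were called higher in FKl/l MHC+ than in FKl/l MCK+, and 3 (with Tnni2) than in FKl/l. Only Mylpf was called higher than in MHC CRE Only. In MHC CRE Only against FKl/l 0 were called, and all 6 log2 fold changes were positive (median 0.64). Their list summed to 3609 to 4995 CPM in FKl/l MHC+, 3549 to 4384 in MHC CRE Only, 2558 to 4493 in FKl/l MCK+ and 2412 to 4266 in FKl/l. The part of these cell types in the matrix results was not tested.

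**Figure D5:**
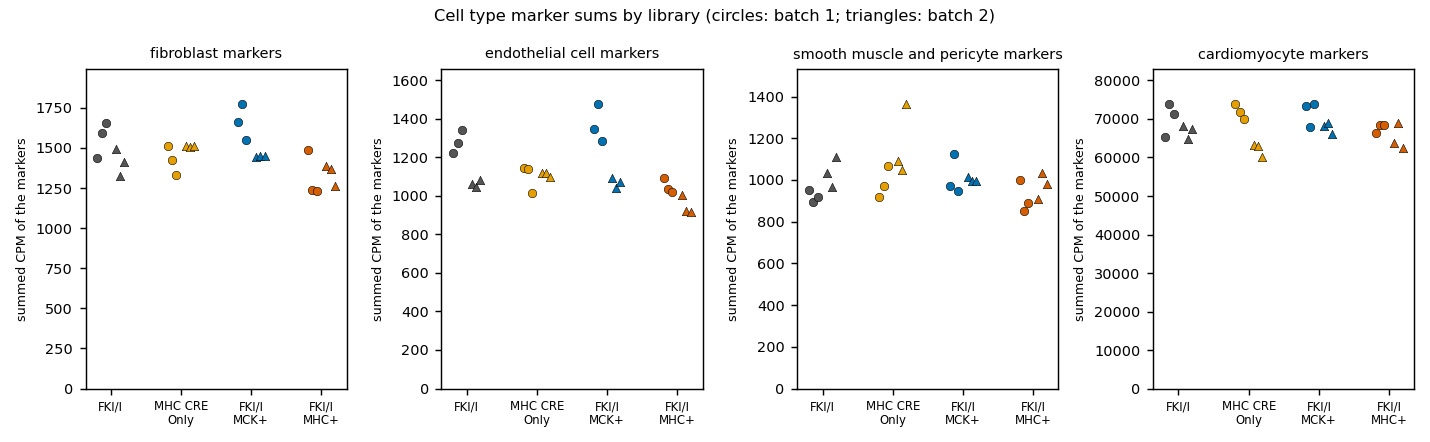
Summed CPM of the markers of 4 cell types in each library (circles batch 1, triangles batch 2). The endothelial sums of FKl/l MHC+ lie at 916 to 1090 CPM, those of MHC CRE Only at 1012 to 1145 and those of FKl/l MCK+ at 1040 to 1479. The cardiomyocyte sums of the genotypes overlap.

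Genes of the same pathways outside the set were read from 6 lists, which were chosen with earlier results of these data known. The share called in a list is therefore no independent test of it. In FKl/l MCK+ against FKl/l edgeR called 0 genes in each list, with 1 to 5 at an unadjusted p under 0.05 per list, and in MHC CRE Only against FKl/l also 0, with 1 to 10. Of 21 further collagens edgeR called 0 in each of the 5 comparisons. At an unadjusted p under 0.05 there were 1, 6, 7, 1 and 7, against 5.24%, 14.7%, 15.8%, 12.9% and 15.4% of all genes. In FKl/l MHC+ all 6 were lower against FKl/l, 6 of 7 against MHC CRE Only and all 7 against FKl/l MCK+. The median log2 fold changes of the 21 were -0.23, -0.33 and -0.37 in these 3 comparisons. Among 25 myofibroblast and TGF-β response genes, FKl/l MHC+ had 3 called higher against FKl/l and 4 against each of MHC CRE Only and FKl/l MCK+, and none lower, where 1.71%, 1.87% and 2.15% of all genes were called. Without the library labelled MHC CRE Only 1-3 those 4 were still called, Ccn2 was called higher (adjusted p = 0.0215) and Tgfbi lower (adjusted p = 0.0479). Timp1, an inhibitor of matrix metalloproteinases, was at 3.72 ± 1.49 CPM in FKl/l MHC+ and 1.54 ± 0.618 in FKl/l (SD, n = 6; log2 fold change 1.24, adjusted p = 0.00322). Fstl3, which binds activin, was at 7.57 ± 1.78 against 4.24 ± 0.575 CPM (0.83, adjusted p = 0.000566), and Thbs4, a thrombospondin, at 11.2 ± 1.31 against 6.35 ± 2.05 CPM (0.83, adjusted p = 0.00157). Tgfb2, a TGF-β ligand, was the added gene against MHC CRE Only (0.56, adjusted p = 0.0074) and against FKl/l MCK+ (0.48, adjusted p = 0.0217). Acta2 and Tagln, contractile genes of myofibroblasts, were not called.

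Of 51 other matrix glycoproteins and proteoglycans, FKl/l MHC+ had 2 called lower and 1 higher against FKl/l, 3 lower against MHC CRE Only and 5 lower against FKl/l MCK+ (1.71%, 1.87% and 2.15% of all genes called). Ltbp4, which anchors latent TGF-β to microfibrils and binds Fbln5, was at 214 ± 28.4 CPM in FKl/l MHC+, 291 ± 33.7 in FKl/l, 297 ± 26.4 in MHC CRE Only and 303 ± 37.1 in FKl/l MCK+ (n = 6 each). Its log2 fold changes were -0.44, -0.48 and -0.51 (adjusted p = 0.00527, 0.00381 and 0.00201). Sparcl1, a relative of Sparc, was lower in all 3 comparisons (-0.34, -0.28 and -0.39; adjusted p = 0.0076, 0.0346 and 0.00269). Fbn2, fibrillin 2, was the 1 higher (0.90, adjusted p = 0.034), at 2.33 CPM. Prelp was lower against MHC CRE Only (-0.32, adjusted p = 0.0281; 0.0611 without the library labelled MHC CRE Only 1-3, where Tgfbi was called lower), and Lama4, a vessel laminin chain, against FKl/l MCK+ (-0.23, adjusted p = 0.0437).

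Of 23 genes of collagen folding, P4hb, a subunit of prolyl 4-hydroxylase, was higher in FKl/l MHC+ than in FKl/l (0.31, adjusted p = 0.0198) and FKl/l MCK+ (0.32, adjusted p = 0.0188), and Colgalt2 lower than in FKl/l MCK+ (-0.37, adjusted p = 0.0378). Of 25 other fibroblast markers, Lsp1 was higher than in FKl/l (0.32, adjusted p = 0.0359), Pcsk6 lower than in MHC CRE Only (-0.36, adjusted p = 0.00916) and FKl/l MCK+ (-0.33, adjusted p = 0.0144), and Islr lower than in FKl/l MCK+ (-0.32, adjusted p = 0.039). Of 26 integrins and matrix receptors, the collagen receptor Ddr1 was higher than in FKl/l (0.39, adjusted p = 0.00359), Cd44 higher and Itga3 lower than in MHC CRE Only (0.43 and -0.35, adjusted p = 0.0436 and 0.0384), and Sdc3 lower than in FKl/l MCK+ (-0.24, adjusted p = 0.0308). Without the library labelled MHC CRE Only 1-3, Cd44 and Itga3 were not called (adjusted p = 0.0664 and 0.0831) and Wif1, a secreted Wnt inhibitor of the fibroblast list, was called higher (0.73, adjusted p = 0.0418).

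The labelled batch also differed. Batch 2 against batch 1 gave 8 of 45 called (17.8%), where 38.4% of all genes were. Lamb1 (0.29), Col15a1 (0.29), Fbn1 (0.26), Col6a2 (0.24) and Loxl1 (0.19) were higher in batch 2, and Bgn (-0.31), Nid1 (-0.21) and Dcn (-0.19) lower. The interaction of genotype with batch called 0 of the 45 genes in edgeR's test, with 6 at an unadjusted p under 0.05 (Loxl1, Lama2, Lamb1, Eln, Lum and Dpt), and 0 in limma voom, with 5; 4.91% of all genes were called. In the authors' deposited tables of the 5 comparisons, which test against a fold of 1.2, 0 of the 45 genes had an adjusted p under 0.05. Tested here with edgeR against the same fold, 0 were called in each, with 1, 5, 4, 0 and 7 at an unadjusted p under 0.05 in the order given above.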

How the data were processed

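Total RNA of whole hearts was sequenced in 24 directional libraries, per the labels' protocols. The counts per gene were deposited as whole numbers. Per the submitters' processing notes bcl2fastq 2.17, FastQC, Trim Galore, STAR and RSEM were used with genome build mm10, and which annotation and strand setting the counting used is not stated there. The authors' deposited comparison tables hold log2 fold changes and mean log2 expression, a test score, and p-values with adjusted p-values. Those scores are 0 for changes under a fold of 1.2.

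Of 56384 rows, 3660 name transcripts and were left out (0.873% to 4.28% of the counts). Counts were tested with edgeR 4.0.16 (TMM scaling, filter by expression, robust quasi-likelihood F-test, 2-sided) under R 4.3.3, in 1 fit of 24 libraries with genotype and batch. P-values were adjusted by Benjamini-Hochberg over all 16018 genes, and a gene is called at adjusted p under 0.05. Log2 values of libraries used log2(CPM + 0.5). CPM were scaled by TMM, and CPM per kb used the exon union of GENCODE M21. Depth and the number of libraries limit precision, most for Spp1 and Tnc. Alternatives used DESeq2 1.42.0, limma 3.58.1 and other settings. The fitting was tested on simulated data. Replicates differed by more than counting noise (chi-square per degree of freedom 8.37 to 157). Every called gene of the set, and the gene with the smallest p in each role group without a call, is named; lists outside the set give up to 3 called genes each, or more where the count is small. Some results on listed genes outside the set are not reported here. The members and lists were chosen with earlier results of these data known.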

Additional observations from a re-analysis of the deposited data

Results flagged for a closer look

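Of 180 sets of 6 libraries (45 genes in 4 genotypes), 10 had a highest or lowest library far from the other 5, where chance gives about 1 in 20, or 9. Of the 10, 6 were in FKl/l MCK+ 1-2. In that library Eln was at 307.9 CPM (next 161), Mfap4 at 49.37 CPM (next 24.5), Col3a1 at 316.7 CPM (next 194) and Sparc at 815.5 CPM (next 503). Dpt was at 77.03 CPM there (next 57.1) and Fbln5 at 25.53 CPM (next 22.1).

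The other 4 were spread over 3 libraries. Col6a1 was at 114.9 CPM (next 97) and Mfap4 at 22.19 CPM (next 16.8) in FKl/l MHC+ 1-1. Col4a1 was low in FKl/l MHC+ 2-1, at 272.5 CPM with the next at 335. Col8a1 was at 17.55 CPM in FKl/l 1-1, with the next FKl/l library at 12.8.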

How the results depend on the processing

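Counts of called genes are given in the order FKl/l MCK+ against FKl/l (1), FKl/l MHC+ against FKl/l (2), FKl/l MHC+ against MHC CRE Only (2) and FKl/l MHC+ against FKl/l MCK+ (9). MHC CRE Only against FKl/l gave 0 under every setting run. A test against a fold of 1.2 gave 0, 0, 0 and 0. DESeq2 gave 2, 6, 8 and 10, and limma voom 1, 2, 5 and 8. Leaving out the batch term gave 1, 1, 0 and 3, and fitting only the genotypes compared gave 1, 1, 3 and 5. Batch 1 alone gave 0, 2, 0 and 0, and batch 2 alone 0, 0, 8 and 3, with fewer libraries in each fit. Leaving out FKl/l 1-1 together with MHC CRE Only 2-3 and 1-3 gave 1, 4, 2 and 9. Leaving out FKl/l MCK+ 1-2 as well, a setting chosen after seeing the data, gave 1, 7, 4 and 7. Leaving out each library in turn gave 1 to 2, 1 to 8, 0 to 6 and 2 to 10 (0 to 0 for the controls). The cause of these differences was not tested. Numbers called among all genes are not given for these settings, apart from the left-out fits named with the comparison of the deletions. A change in the set and a change in calling over all genes therefore cannot be told apart here. No called gene changed direction under any setting run. The values of listed genes outside the set without the library labelled MHC CRE Only 1-3 were also chosen after seeing the data. Without the filter on low counts the counts were 1, 3, 3 and 7, with upper-quartile scaling 1, 2, 2 and 9, and without mitochondrial genes 1, 3, 2 and 9.

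With the batch and number of the label as a replicate block in place of batch, the counts were 1, 2, 2 and 5, the 5 being Fbln1, Lama2, Fbln5, Gsn and Htra3. Libraries with the same batch and number did not deviate together (median r = -0.05, 8 of 36 pairs over 0.1; 0.02 for other numbers), so the numbers were not taken as pairs. Depth limited Spp1, with 4 to 18 counts, and Tnc, with 15 to 91.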

Other observations

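In MHC CRE Only the elastin gene Eln was at 85 to 104 CPM in batch 1 and at 149, 189 and 229 CPM in batch 2, where FKl/l ranged from 81.9 to 126 CPM over both batches. Mfap4 was at 16.6 to 19.7 CPM in batch 1 and 18.2 to 25.2 CPM in batch 2, and these ranges overlapped. For both genes the highest value was in MHC CRE Only 2-3. That library also had the highest sums of lung and airway (796 CPM), smooth muscle and pericyte (1366 CPM) and epicardial (62.5 CPM) markers, and their part in these values was not tested. The interaction of genotype with batch called neither gene in edgeR's test. The unadjusted p was 0.0322 for Eln (adjusted p = 0.16) and 0.197 for Mfap4 (adjusted p = 0.41).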
